A study of Sus scrofa with 226 samples.

Results

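This account concerns sensory neurons of the pig dorsal root ganglion that carried much ADCYAP1 RNA and little OSMR RNA, divided by how high a value they had reached in a recording at 100 Hz. Members were neurons with at least 200 CPM of ADCYAP1 (CPM is a count scaled to the total of its library), under 50 CPM of OSMR and a recorded 100 Hz value. They came from 10 animals and made up 58.4% of all neurons sequenced, with 94 others outside the rule. They were divided at their median 100 Hz value of 7, which put 59 member neurons above the median and 73 at or below it. The measured value itself chose the sides, so its levels and those of the other stimulus frequencies are descriptions with no test. All animals were wild type, no treatment is named, and the ganglia came from cervical, thoracic and lumbar levels. The 10 pigs were 11 to 20 weeks old, and the cells had been in culture for 1, 2 or 3 days when they were patched, recorded, collected with a second pipette and sequenced. Dissociated neurons have lost their axon, so what was recorded is the response of the cell body.

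Sensory neurons differ in the rate at which they can repeat action potentials, and following a fast train of stimuli to the end is a property that separates fibre classes in the nerve. ADCYAP1 encodes the neuropeptide PACAP and TAC1 encodes the precursor of substance P, and both are textbook markers of peptidergic nociceptors, the pain-sensing neurons that release peptides. OSMR encodes a receptor subunit for oncostatin M and marks another class of unmyelinated neurons. The capacitance of a cell grows with its membrane area, the input resistance falls with it, and the rheobase is the smallest step of current that makes the cell fire.

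The label of ADCYAP1-high neurons was checked against the second marker. TAC1 was under 200 CPM in 8 members, with a median over all members of 4625 CPM, and at 200 CPM or more in 85 of the 94 other neurons, with a median of 6044 CPM, so it did not set the members apart. ADCYAP1 had a median of 1806 CPM in the members. The lowest value inside the threshold was 214.2 CPM and the highest outside it 169.96 CPM. OSMR had a median of 1.01 CPM in the members and no count in 60 of them, and the value next to its threshold was 47.9 CPM inside and 50.3 CPM outside. The total count per member neuron ran from 109726 to 4455869 with a median of 729586. On the mean of the log2 total count per cell, the neurons above the median were shallower in 6 of the 7 animals used for testing, with 19.6 ± 1.17 against 19.9 ± 1.10 (SD, n = 7 animals), so depth moved with the comparison. With that depth as a covariate edgeR called 0 genes, with 352 genes at an unadjusted p under 0.05.

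Few of these neurons reached the top of the 100 Hz scale. The value was a whole number from 0 to 20, and the cell table does not define it. At each of the lower frequencies 20 was also the highest value. Only 9 member neurons stood at 20, 37 stood at 10 or 11, 31 at 1 to 3 and 1 at 0. The neurons above the median were thus mainly neurons at 8 to 11. Next to the division there were 16 neurons at 7, on the lower side, and 8 at 8, on the upper side. Outside the members, the 66 neurons with at least 50 CPM of OSMR had a median of 2, with quartiles of 1 and 3. The 27 neurons low in both genes had a median of 7, the same as the members.

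**Figure D1:**
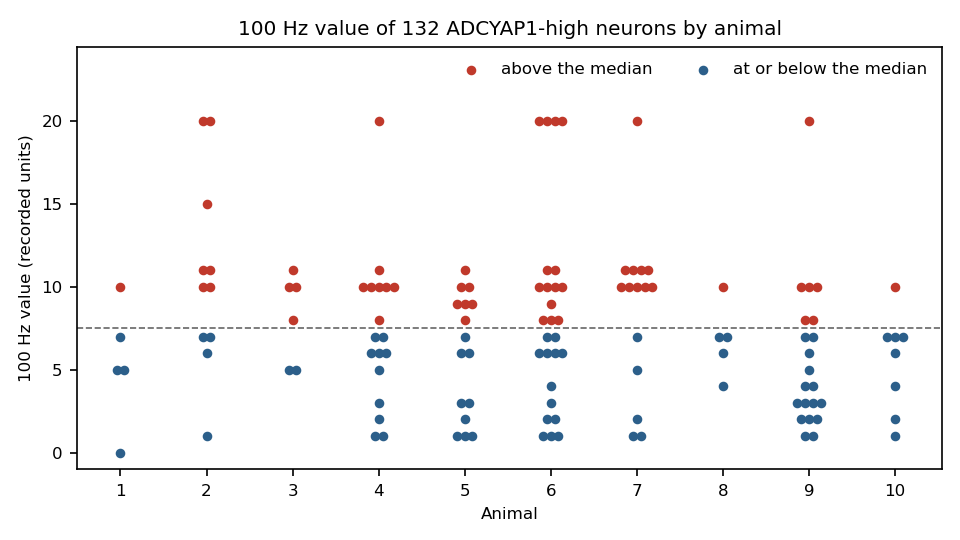
100 Hz value of each member neuron (vertical axis, units as recorded) by animal (horizontal axis), with dots at the same value spread sideways and a dashed line at the division. Neurons above the median were present in all 10 animals, and only 9 neurons reached 20.

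Both sides occurred in every animal. Animals 1, 8 and 10 had a single neuron above the median each, and the other 7 animals had 4 to 14. In those 7 animals the share above the median ran from 28.6% in animal 9 to 66.7% in animals 3 and 7. By day in culture, 35 of 77 neurons were above the median at 1 day, 15 of 44 at 2 days and 9 of 11 at 3 days. Tests used the 7 animals with at least 2 neurons on each side, and the animal was the replicate.

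The values at the other frequencies differed mainly at 50 Hz. At 20 Hz all 59 neurons above the median had the full value of 20, as did 53 of the 73 others. At 50 Hz the full value was reached by 53 neurons above the median and by 3 of the others. The mean 50 Hz value per animal had a lowest, median and highest value of 16.25, 20 and 20 above the median. It was 8.44, 9.87 and 11 at or below it. The animal means of the 2 sides did not overlap at 50 Hz, but the neurons did, from 6 to 20 above the median and 1 to 20 at or below it. The sides differed little at 2 Hz, where 59 and 70 neurons were at 20. Most neurons of the upper side were thus at the full value up to 50 Hz, and most of the lower side only up to 20 Hz. The 100 Hz value averaged 11.3 ± 1.53 against 4.10 ± 0.81 (SD, n = 7 animals).

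Neurons with a high 100 Hz value were smaller and needed less current. Capacitance, diameter, rheobase, the current at threshold and the threshold in the column named HS were lower above the median in 7 of 7 animals, and input resistance was higher in 7 of 7. Each of these reached the smallest p that 7 animals allow in an exact two-sided sign-flip test, 0.0156. None was called after Benjamini-Hochberg adjustment over all 404 tested columns: 0 columns passed (0%), the smallest adjusted p was 0.284, and 10 columns (2.48%) had an unadjusted exact p under 0.05. Of those 404 columns 370 are repeats of 5 measures over successive pulses. Adjusted over the 34 other columns alone, the smallest adjusted p was 0.0664, with 8 columns at the smallest p and 11 needed. The 8 overlap in content, with both input resistance columns, both readings of size, and rheobase beside a current that contains it.

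Capacitance, as the column named cslow is read here, separated the sides in every animal. The mean capacitance per animal had a lowest, median and highest value of 35.9, 38.2 and 48.8 above the median, and of 60.6, 73.9 and 98.3 at or below it, in the units of the cell table, which states none. The ranges did not overlap. The mean difference was -34.8 ± 11.2 (SD of the differences, n = 7 animals, exact p = 0.0156). With 1 neuron per animal and side taken as enough, 10 animals entered and capacitance was lower above the median in 10 of 10. Its exact p was then 0.00195, and its adjusted p was 0.0842 over all columns and 0.0221 over those outside the pulse series.

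The diameter column gave the same order. The lowest, median and highest animal means were 29.5, 31.6 and 33.6 above the median and 33.95, 38.6 and 42.3 at or below it. The ranges did not overlap, with a difference of -6.82 ± 2.24 (SD, n = 7 animals, exact p = 0.0156). Across the 57 and 72 neurons of the sides with both values, capacitance and diameter had a Spearman correlation of 0.69, so these are 2 readings of a shared property of size.

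Input resistance, which is given in 2 columns whose means differ in animals 2, 3 and 4, was higher above the median. In the column marked new the animal means were 0.266, 0.311 and 0.463 (lowest, median, highest) above the median against 0.150, 0.219 and 0.252. The ranges did not overlap, and the difference was 0.145 ± 0.061 (SD, n = 7 animals, exact p = 0.0156). Over 10 animals it was higher in 8.

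Rheobase was lower above the median in each animal, although the ranges overlapped. Its animal means ran from 44.2 to 136.4 with a median of 70 above the median 100 Hz value, and averaged 77.4 ± 29.5 there against 165.6 ± 45.6 at or below it (SD). The difference was -88.2 ± 46.8 (SD, n = 7 animals, exact p = 0.0156). Over the 10 animals with at least 1 neuron on each side, rheobase was lower in 9 and higher in 1, by -59.4 ± 84.04 (SD, n = 10 animals, exact p = 0.0547). The current at threshold (the column pA_threshold), which can be negative in this table, averaged -2.37 ± 31.8 against 96.9 ± 55.3. It is not a separate measure, since it takes in the starting current (the column pA_start) and the rheobase. Over the 10 animals the means above the median were -110.8 for pA_start, 91.2 for rheobase and -19.7 for pA_threshold. The starting current was lower above the median in 6 of the 10 and higher in 4. The HS threshold averaged 152.9 ± 79.1 against 264.1 ± 88.1, and in animal 5 it was nearly equal on the 2 sides, at 306.4 and 308.3. Over the same 10 animals the HS threshold was lower in 9 and higher in 1, with a smaller difference of -62.7 ± 126.4 against -111.3 ± 84.5 in the 7 (exact p = 0.146). The membrane potential just before the action potential was slightly more negative above the median in 7 of 7 animals, at -61.3 ± 0.62 against -60.1 ± 0.73.

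**Figure D2:**
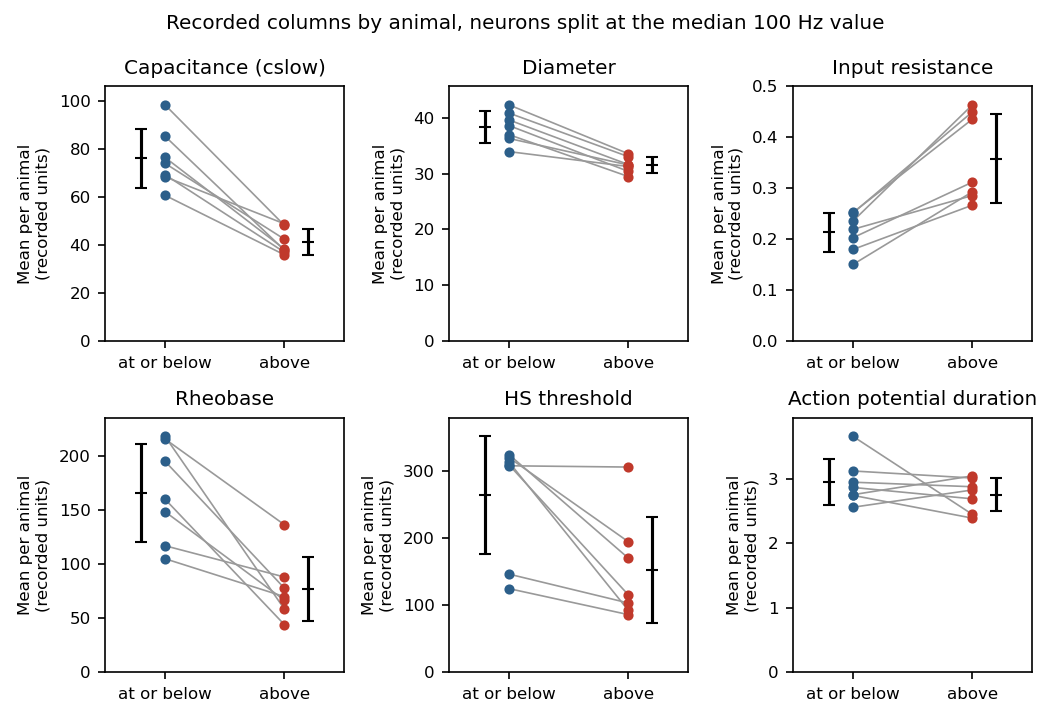
Mean of the neurons of each animal (dots, vertical axes from 0 in recorded units) at or below and above the median 100 Hz value, with a line per animal and the mean ± SD of the 7 animals beside the dots. Capacitance, diameter, rheobase and the HS threshold slope down and input resistance slopes up in 7 of 7 animals, and action potential duration goes both ways.

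The shape of the action potential differed less. Its duration had animal means of 2.39, 2.83 and 3.05 (lowest, median, highest) above the median and 2.56, 2.87 and 3.66 at or below it, with a difference of -0.19 ± 0.50 (SD, n = 7 animals, exact p = 0.422). Its peak and amplitude were lower above the median in 6 of 7 animals. The peak averaged 45.9 ± 7.04 against 49.8 ± 4.73 (n = 7 animals, exact p = 0.0469, adjusted p = 0.284). The lowest point of the afterhyperpolarisation was -73.8 ± 2.07 against -73.8 ± 2.25 (exact p = 0.984). Resting potential, available on both sides in 6 animals, was -54.3 ± 3.20 against -56.8 ± 1.78 and less negative above the median in 5 of 6 (exact p = 0.0938). That direction is opposite to the potential just before the spike.

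Neurons with a high 100 Hz value also had lower values in a series of 75 columns, labelled ADS and RT, with 1 column for each successive pulse. All 75 were lower above the median in 5 of 5 animals with enough neurons, by 1.24 to 1.39 in recorded units. With 5 animals the exact p cannot go below 0.0625, so no column of this series could pass. The columns follow the same cells through the same train and are not independent of each other. The other 4 series (membrane potential, slope, peak and time to peak per pulse) had no such run. They too rested on 5 animals, so their p-values could not go under 0.05 either. In the time to peak series 3 of 73 columns were lower in every animal. In the other 3 series 0 columns went 1 way in every animal.

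Size followed the 100 Hz value by degrees and not only across the division. Median capacitance was 81.2 in the 32 neurons at 0 to 3, 62.99 in the 41 at 4 to 7, 37.9 in the 49 at 8 to 11 and 32.8 in the 10 above 11. Median diameter was 38.6, 35.7, 30.3 and 27.98 in the same order. Within animals the Spearman correlation of capacitance with the 100 Hz value was negative in 10 of 10 animals, from -0.92 to -0.44 with a mean of -0.70 ± 0.15 (SD), as a description over 5 to 27 neurons of shared dissections. The sides still overlapped cell by cell. Neurons above the median ran from 11.3 to 136.6 in capacitance with a median of 36.9, and the others from 36 to 171.8 with a median of 69.1.

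**Figure D3:**
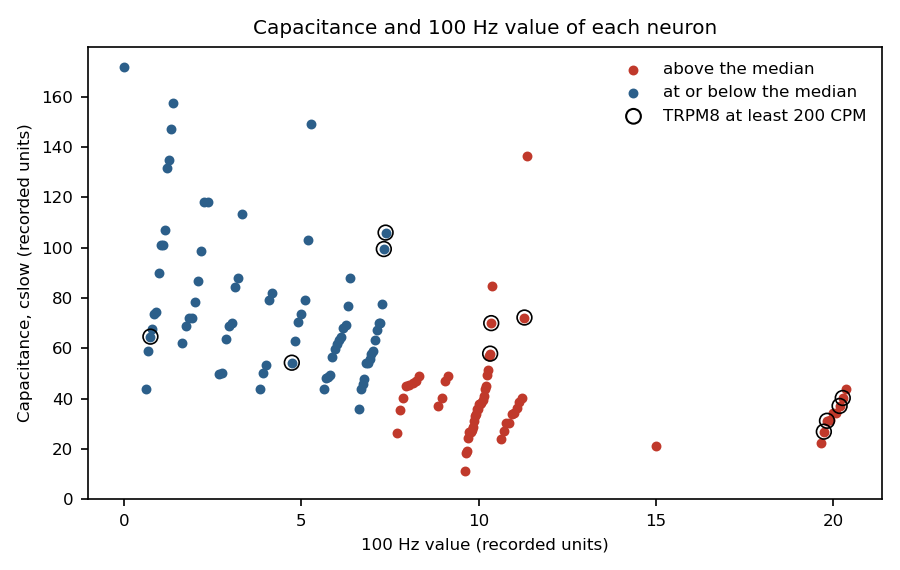
Capacitance (vertical axis, recorded units) against the 100 Hz value (horizontal axis, recorded units, whole numbers with dots spread sideways) of each member neuron, with neurons of at least 200 CPM of TRPM8 ringed. Capacitance is lower at higher values, and 4 of the 9 neurons at 20 are ringed.

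For gene expression, counts were summed over the neurons of each animal and side, giving 14 sums from 7 animals with totals from 3702882 to 26174602. They held 56 neurons above the median and 58 at or below it. The question was which genes differ between neurons with a higher and a lower 100 Hz value. Of 15254 genes tested, edgeR (quasi-likelihood, animals as blocks) called 0 at a Benjamini-Hochberg adjusted p under 0.05 (0%), with a smallest adjusted p of 0.899. At an unadjusted p under 0.05 there were 778 genes (5.1%), 348 higher and 430 lower, against 762.7 that the threshold alone gives. DESeq2 on the same sums called 30 genes, 14 higher and 16 lower (0.256% of the 11705 it adjusted), and all 30 had the same sign in edgeR. limma on animal means of single-cell log2(CPM + 1) values called 0, with 1176 at an unadjusted p under 0.05. Over all genes the median log2 fold change was 0.05. Every gene named below is therefore a measurement that edgeR did not call, and bulk sums cannot separate more cells with a gene from more RNA per cell unless the cells are counted. All p-values for genes below are unadjusted edgeR values, each with an adjusted p of at least 0.899, unless DESeq2 is named.

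TAC1 (ENSSSCG00000023592), the marker gene that the rule did not use, had a lower level in neurons with a high 100 Hz value in 6 of 7 animals. It had log2 CPM values of 10.41, 11.82 and 13.14 (lowest, median, highest sum) above the median and 12.26, 12.99 and 13.14 at or below it. Animal 5 went slightly the other way. The log2 fold change was -1.01 ± 0.26 (SE, p = 0.00213 by edgeR) and the DESeq2 adjusted p was 0.107. Within animals its correlation with the 100 Hz value averaged -0.35 and was negative in 8 of 10. With mean capacitance as a covariate, which separates the sides without overlap, the TAC1 estimate changed sign, to 0.98 (p = 0.167 by edgeR). ADCYAP1 (ENSSSCG00000035186), chosen by a minimum, gave -0.16 ± 0.19 and was lower in 5 of 7 animals, given as a description.

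TRPA1 (ENSSSCG00000006186), which encodes the irritant-sensing ion channel of nociceptors, was lower in neurons with a high 100 Hz value. Its sums were at log2 CPM of 2.43, 3.68 and 7.50 above the median and 5.97, 6.51 and 7.59 at or below it. It was lower in 6 of 7 animals, and animal 3 was the exception. The log2 fold change was -2.18 ± 0.71 (SE, p = 0.00939 by edgeR), and DESeq2 called it with an adjusted p of 0.035. Without the neurons that had TRPM8 at 200 CPM or more, DESeq2 no longer called TRPA1 (adjusted p = 0.159). That run adjusted over another set of genes and used fewer neurons, and the edgeR estimate of TRPA1 without those neurons kept its direction. Counted by cells, a threshold chosen after the values were seen, TRPA1 was at 50 CPM or more in 9 of 59 neurons above the median and 39 of 73 others. The share of such cells averaged 16.8% ± 15.6 against 46.1% ± 14.3 (SD, n = 7 animals) and was lower above the median in 6 animals and equal in animal 3. By range of the 100 Hz value the share was 62.5% at 0 to 3, 46.3% at 4 to 7, 16.3% at 8 to 11 and 10% above 11. The 48 neurons with TRPA1 had a median 100 Hz value of 4.5 and a median capacitance of 67.7, and the 84 without had 9 and 46.7. TRPA1 thus went with cell size, and their parts cannot be told apart here. The TRPA1 estimate was -1.22 (p = 0.175 by edgeR) with the mean log2 total count as a covariate and -0.21 (p = 0.937 by edgeR) with mean capacitance as a covariate.

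Genes of cold-sensing neurons leaned the other way, and TRPM8 was high in few cells. TRPM8 (ENSSSCG00000016314), the cold- and menthol-gated channel, was at log2 CPM of 3.35, 6.67 and 9.52 above the median and 2.09, 3.75 and 8.11 at or below it. The ranges overlapped widely, it was higher in 5 of 7 animals, and the log2 fold change of 2.65 ± 1.37 (SE) had p = 0.0774 by edgeR. Only 11 member neurons had TRPM8 at 200 CPM or more, 7 above the median and 4 at or below it. They came from 8 animals and included 4 of the 9 neurons at 20. Their median TAC1 was 500.1 CPM, against 4964 CPM in the other members, and 1 of the 11 had TRPA1 at 50 CPM or more. FOXP2, a transcription factor gene, was 1.73 ± 0.53 higher (p = 0.00705 by edgeR) and CDH8, a cadherin gene, 1.52 ± 0.58 higher (p = 0.0217 by edgeR), each in 6 of 7 animals. FOXP2 and CDH8 were not counted by cell. Over the alternatives other than leaving out an animal, FOXP2 ran from 0.78 to 2.33 and CDH8 from 0.42 to 3.12. Without the 11 neurons TAC1 gave -0.84 and TRPA1 -1.97, with 0 genes called by edgeR and 671 genes at an unadjusted p under 0.05. The TRPM8 estimate was then 0.21, a fall set by the choice of those neurons on TRPM8 itself.

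Among genes with a mean log2 CPM over 4 the smallest p on the higher side was that of MMP1 (ENSSSCG00000014985), which encodes an interstitial collagenase. Its sums were at log2 CPM of 4.06, 6.68 and 8.74 above the median and -1.09, 4.40 and 6.26 at or below it, and it was higher in 7 of 7 animals. The log2 fold change was 2.75 ± 0.54 (SE, p = 0.000282 by edgeR), and DESeq2 called it with an adjusted p of 3.49e-05. Few cells carried it. MMP1 was at 50 CPM or more in 17 of 59 neurons above the median and 11 of 73 others, and 33 and 34 neurons had no count. The 5 neurons with the most MMP1 counts, from 5 animals, held 77.3% of the counts above the median. On animal means of single-cell log2 values, which weigh cells alike, limma gave 0.47 with p = 0.248, and the correlation with the 100 Hz value within animals averaged 0.05. In cells at 1 day only, animals 2, 3, 5, 6 and 9 had enough neurons on both sides. There MMP1 was the single gene edgeR called, at 3.69 with an adjusted p of 0.00385. On the upper side of animals 2 and 3 a single neuron each carried it, at 476.1 and 1404 CPM.

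ENO2 (ENSSSCG00000028373), the neuronal enolase of glycolysis, had sums at log2 CPM of -0.17, 5.37 and 6.65 above the median and -0.69, 1.36 and 6.47 at or below it. It was higher in 6 of 7 animals at 2.94 ± 0.94 (SE, p = 0.00884 by edgeR), and DESeq2 called it with an adjusted p of 0.0179. It was at 50 CPM or more in 14 of 59 neurons above the median and 5 of 73 others. As with MMP1, few neurons gave most of the counts, 51.4% from 5 cells, and the within-animal correlation averaged 0.06. Most of the 11 neurons with TRPM8 at 200 CPM or more also carried ENO2, and 19 of all members had it at 50 CPM or more. In those 11 ENO2 was 162.6, 142.1 and 87.2 CPM in animal 2, 686.7 in animal 4 and 354.0 in animal 7. It was 273.6 CPM in animal 9, 120.1 and 0 in animal 6 and 66.4 in animal 10. In animals 5 and 1 it was 33.9 and 0 CPM. Without the neurons that had TRPM8 at 200 CPM or more, DESeq2 still called ENO2, at 2.24 with an adjusted p of 0.0418.

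**Figure D4:**
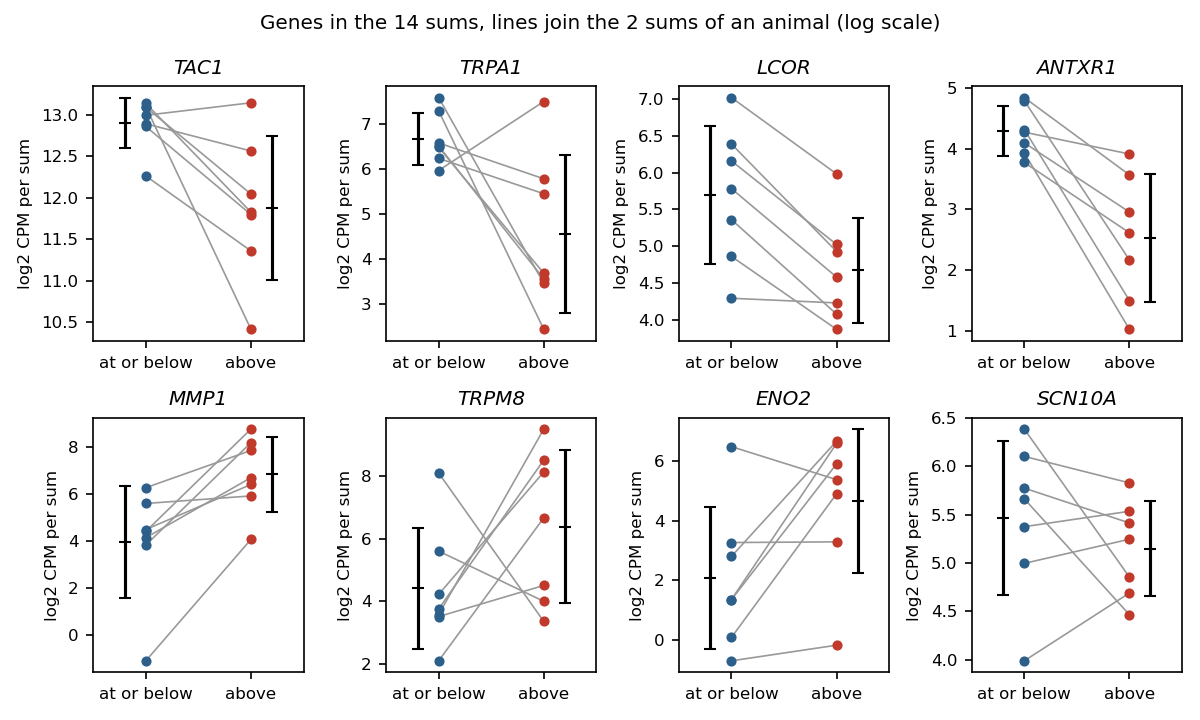
Log2 CPM (vertical axes, log scale, not from 0) of 8 genes in the 14 sums, at or below and above the median 100 Hz value, with a line per animal and the mean ± SD of the 7 animals beside the dots. TAC1 and TRPA1 are lower above the median in 6 of 7 animals, LCOR and ANTXR1 in 7 of 7, MMP1 is higher in 7 of 7, and SCN10A goes both ways.

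Other genes differed in the same direction in 6 or 7 of the 7 animals. ANTXR1 (ENSSSCG00000008340), which encodes an anthrax toxin receptor that binds matrix, was -1.77 ± 0.42 (p = 0.00126 by edgeR, DESeq2 adjusted p = 0.00898). It was lower in 7 of 7 animals, and within animals its correlation with the 100 Hz value was negative in 10 of 10, with a mean of -0.35. RARRES1, a retinoic acid responder, was -1.29 ± 0.33 (p = 0.00195 by edgeR, DESeq2 adjusted p = 0.0354), with a negative correlation in 10 of 10 animals and a mean of -0.31. MTA3, a subunit of a chromatin remodelling complex, was higher in 7 of 7 animals at 1.15 ± 0.29 (p = 0.00172 by edgeR, DESeq2 adjusted p = 0.00578), with a positive correlation in 9 of 10 animals. LCOR, a nuclear receptor corepressor, was -1.04 ± 0.23 (p = 0.000722 by edgeR, DESeq2 adjusted p = 0.00898) and lower in 7 of 7. NRP1, the semaphorin and VEGF co-receptor neuropilin 1, was -1.27 ± 0.29 (p = 0.000985 by edgeR, DESeq2 adjusted p = 0.0179) and lower in 7 of 7. PLAU, the urokinase gene, was -2.28 ± 0.69 (DESeq2 adjusted p = 0.0438) and lower in 7 of 7, with no count in the upper sum of animal 2. Without the neurons that had TRPM8 at 200 CPM or more, DESeq2 still called PLAU, and ANTXR1, RARRES1, MTA3, LCOR and NRP1 lost their call, with adjusted p-values from 0.0646 for LCOR to 0.485 for MTA3. That run used fewer neurons and withheld 0 adjusted p-values, against 3549 in the main run. Its adjusted p-values are therefore not directly comparable, and a lost call is not by itself a lost difference. With mean capacitance as a covariate the signs of NRP1 and RARRES1 turned.

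Of the 30 genes DESeq2 called, 25 have a symbol, 12 higher and 13 lower, and 14 of the 25 had the same direction in 7 of 7 animals. DESeq2 called them on those same animals, so their shared direction is no separate support. The share with 1 direction over all genes was not counted. Higher in addition to those above were EXOC1L (2.02), ATRN (0.89), NELL2 (3.08), TTC23 (3.21), SOWAHB (2.77), EAF2 (1.49), BEX5 (2.76), GPR37 (2.85) and ZNF385B (2.35), as log2 fold changes in edgeR. Lower were PDCD6 (-0.59), DDO (-2.42), AUH (-0.86), DGCR8 (-1.44), RAB9A (-1.94), ANAPC2 (-2.11) and CDKN2B (-2.29). Several of the higher genes are sparse: NELL2, TTC23, SOWAHB, GPR37 and ZNF385B had a sum at the floor of -2.08, the value of a sum without a count. Genes that the naming rule added without a DESeq2 call were PEG10 (0.81), MRPL38 (0.86), LSAMP (0.63), CNTN4 (0.96), PRELID3A (1.12), GNB5 (0.79) and SGSM1 (0.92) on the higher side. LSAMP and CNTN4 encode neuronal adhesion molecules and GNB5 a G protein beta subunit. On the lower side they were DTX3L (-0.72), ISG15 (-0.66), SMAD2 (-0.84), CLIC4 (-0.87) and CARHSP1 (-0.67). ISG15 is a textbook interferon-induced gene and CLIC4 an intracellular chloride channel protein. With mean capacitance as a covariate the signs of LSAMP, CNTN4, GNB5, DTX3L and CLIC4 turned. Over the genes that the rule added, the unadjusted edgeR p without it ran from 0.00156 for DTX3L to 0.0113 for SGSM1.

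Genes of electrical excitability were then read as lists, each beside the same count over all genes. Of 250 genes in 25 lists that were tested, 0 were called, and 19 had an unadjusted p under 0.05, 9 higher and 10 lower, or 7.60% against 5.1% of all genes. No voltage-gated sodium channel gene was among them. The 8 tested sodium channel genes had a median log2 fold change of -0.12, against 0.05 for all genes. SCN10A, the nociceptor channel Nav1.8, was at log2 CPM of 4.46, 5.24 and 5.83 above the median and 3.99, 5.66 and 6.38 at or below it. Its fold change was -0.32 ± 0.30 (SE, p = 0.306 by edgeR). SCN9A (Nav1.7) was -0.15 ± 0.19 and SCN11A (Nav1.9) -0.10 ± 0.32. SCN8A (Nav1.6) and SCN2A (Nav1.2) were 0.12 ± 0.47 and 0.14 ± 0.60. SCN1A was 2.25 ± 1.13 (p = 0.0703 by edgeR), higher in 5 of 7 animals, with a sum at the floor of -2.08 in animals 3 and 5. SCN7A was -0.18 ± 0.18. SCN2B, a beta subunit named after its value was seen, was -0.16. The signs of SCN2A, SCN8A and SCN11A turned when single animals were left out. Of the 3 FGF partners tested, FGF12 was 0.27 ± 0.15 and FGF11 0.53 ± 0.39, which was -0.37 with sums of a single cell admitted.

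Among potassium channels 2 of 21 tested voltage-gated genes had an unadjusted p under 0.05 (9.52%, against 5.1% of all genes), in opposite directions. KCND3, an A-type channel subunit, was -1.23 ± 0.38 (p = 0.00759 by edgeR), lower in 6 of 7 animals and negatively correlated with the 100 Hz value in 9 of 10. KCNB2, a delayed rectifier, was 1.37 ± 0.56 (p = 0.0304 by edgeR), higher in 7 of 7. Its level was low, with a mean log2 CPM of 1.33 and the lower-side sum of animal 3 at the floor of -2.08. KCNIP4, a partner of A-type channels, was -0.38 ± 0.19 (p = 0.0719 by edgeR). KCNA2, KCNG3 and HCN2 did not pass the filter on low counts and have no fold change here. Of the 11 other potassium channel genes tested 1 was among them (9.09%), KCNMB2, at 2.36 ± 1.05 (p = 0.045 by edgeR). KCNMB2 encodes an auxiliary subunit of the large-conductance calcium-activated channel, and it had a sum at the floor of -2.08 in animals 4 and 7. KCNJ11 was 0.88 ± 0.55. PEX5L was -0.14 ± 0.32. Of 9 calcium channel genes and 13 chloride channel and transporter genes none had an unadjusted p under 0.05. CACNA1B and CACNB4 were -0.72 ± 0.55 and 0.69 ± 0.60, ANO6 and CLCN3 -0.44 ± 0.27 and -0.69 ± 0.47, and ANO3 -0.72 ± 0.73. The 5 sodium pump genes had a median of 0.45 with 0 at an unadjusted p under 0.05. ATP1B2 was 0.44 ± 0.26 and ATP1B1 0.47 ± 0.34.

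Of 18 sensory transduction channel genes TRPA1 alone had an unadjusted p under 0.05 (5.56%, against 5.1% of all genes). TRPV1, the capsaicin and heat channel, was 0.09 ± 0.36, and TMC3 -0.28 ± 0.60. Of 11 peptidergic markers 3 had an unadjusted p under 0.05 (27.3%), with TAC1 and TRPA1 lower. The third, BDNF, a neurotrophin gene named after its value was seen, was higher at 1.71 (p = 0.0391 by edgeR). Of 9 markers of OSMR neurons 1 was among them (11.1%), GABRA5 at 1.98 ± 0.76 (p = 0.023 by edgeR). HRH1 was -0.52 ± 0.42, and OSMR itself, held under 50 CPM by the rule, was -0.22 ± 0.62. Of 6 non-peptidergic markers none was among them, with GFRA1 at -0.62 ± 0.29 and SLC17A8 at 1.78 ± 0.86. The 3 tested cold neuron markers, read above, had a median of 1.73, with 2 (66.7%) at an unadjusted p under 0.05. Of 10 A-fibre markers none was among them, with a median of 0.52 and NTRK2, the receptor for BDNF, at 1.82 ± 0.85 (p = 0.0533 by edgeR). Sums at the floor of -2.08 occurred for NTRK2 in animal 3 and for SLC17A8 in animals 2 and 3.

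Among 18 tested genes of axotomy and regeneration 4 had an unadjusted p under 0.05 (22.2%, against 5.1% of all genes). All 4 were lower, and over all genes 430 were lower and 348 higher. They were STMN4 at -0.50 ± 0.18, ARG1 at -0.51 ± 0.20, NUPR1 at -0.36 ± 0.16 and STMN2 at -0.26, the last of these named after its value was seen. The list's median was -0.19. Of 13 calcium buffering genes 3 had an unadjusted p under 0.05 (23.1%). CALM2, a calmodulin gene, was at -0.47 ± 0.19 and lower in 7 of 7 animals (its sign too turned with capacitance as a covariate). S100A10 was at -0.27, named after its value was seen, and ATP2B2, a calcium pump of the plasma membrane, at 1.93 ± 0.81. The lower-side sums of ATP2B2 in animals 2 and 3 were at the floor of -2.08. Transmitter release gave CPLX1, complexin 1, at 1.12 ± 0.43 and SLC17A6, the vesicular glutamate transporter, at -0.35 ± 0.14, among 20 tested genes (10%). Immediate early genes (FOS 0.40 ± 0.45, FOSL1 -0.61 ± 0.73), genes of the axon initial segment and node (NFASC 1.05 ± 0.60, NRCAM -0.54 ± 0.31) and genes of mitochondrial ATP supply (COX5B -0.27 ± 0.13, SDHA 0.38 ± 0.22) had none. The 15 cell stress genes had 1 (6.67%), NUPR1 again, and XBP1 was -0.48 ± 0.24.

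**Figure D5:**
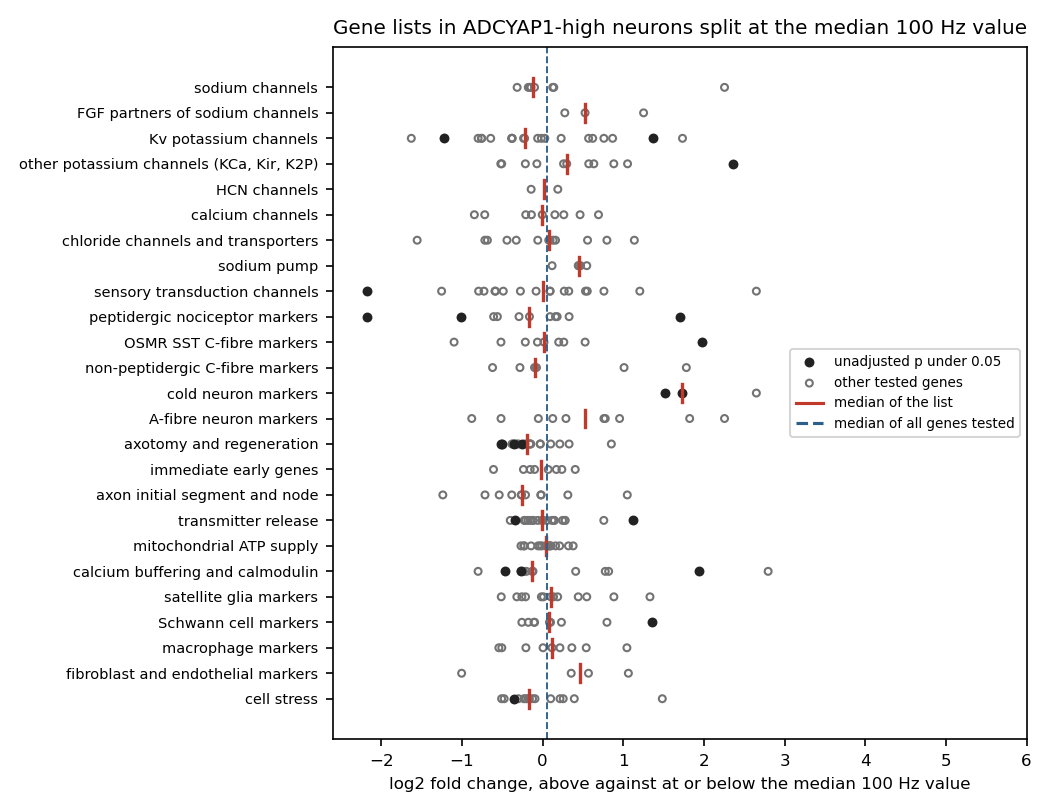
Log2 fold change above against at or below the median 100 Hz value (horizontal axis) of each tested gene of the 25 lists (rows), with filled dots for an unadjusted edgeR p under 0.05, red bars for list medians and a dashed line at the median of all genes tested. Sodium channel genes lie close to the line except SCN1A, and the 3 cold neuron markers lie to its right.

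Markers of other cells that could have come along with a neuron were read in the neurons of the same 7 animals. The CPM of the markers was added up in each neuron and averaged over the neurons of each animal and side. For 14 satellite glia markers this level was 276 to 1546 CPM above the median and 246 to 747 CPM at or below it, higher in 5 of 7 animals. It was 688 to 1065 against 632 to 1176 CPM for 10 Schwann cell markers, and 176.4 to 589 against 143.6 to 608 CPM for 14 macrophage markers. For 11 fibroblast and endothelial markers it was 17.8 to 174.1 against 13.4 to 135.6 CPM. Of 9 tested Schwann cell markers 1, higher, had an unadjusted edgeR p under 0.05 (11.1%, against 5.1% of all genes). None did in the satellite glia, macrophage, or fibroblast and endothelial lists. SOX10, FABP7 and MBP of the glial lists, and TYROBP, C1QA and CSF1R of the macrophage list, had no count in most member neurons. Single genes were ERBB3 at -0.32 ± 0.19, CD74 at -0.21 ± 0.16, CD68 at 0.54 ± 0.44, PECAM1 at -1.005 ± 0.62 and COL1A2 at 1.06 ± 0.85. The part of such cells in the results was not tested beyond leaving out the neurons highest in macrophage markers, where edgeR called 0 genes with 820 at an unadjusted p under 0.05.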

How the data were processed

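Single neurons were recorded by patch clamp, collected whole and sequenced with Smart-Seq2, per the labels' protocols. The deposited gene table holds estimated counts, not scaled by the authors to library size; 52.1% of its values above 0 are not whole, so sums were rounded. The deposited cell table holds other values as the authors recorded them, with no unit or definition given, and the animal of each cell. Of its 269 lines 43 match no sample and were left out. Age and culture day differed from the titles in 0 cells, and 0 neurons had identical counts. Per the submitters' processing notes bcl2fastq 2.20 was used. Aligner, counting tool and genome build: not given in the sources used here. The library kit does not mark strand. Of 30420 identifiers 14867 were paired with a symbol.

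CPM is the count over the cell's total. Counts were summed per animal and side (at least 2 neurons, both sides needed) and tested with edgeR 4.0.16 in R 4.3.3: TMM, filterByExpr, quasi-likelihood, the animal as a block, Benjamini-Hochberg at 0.05. DESeq2 1.42.0 and limma 3.58.1 were alternatives, and adjusted p-values that DESeq2 withheld (3549 genes, and 0 in the run without the TRPM8 neurons) stayed out of counts. Log2 CPM values of sums use a prior count of 2. The animal pairs the sums, since both sides come from the same pigs. The pairing does not match culture day. In animal 2 the lower side was all at 1 day and the upper side included neurons at 2 and 3 days. In animal 7 all neurons at 3 days were on the upper side. Recorded columns with values in at least 70% of the neurons were compared by animal means by exact enumeration of the signs of the animals' differences (a two-sided sign-flip test). Columns named for a frequency, and 2 exact copies, were not tested. The gene fit was tested on simulated data.

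Members and the 25 gene lists were chosen with earlier results of these data known. Named genes were the 10 with the smallest p in each direction (mean log2 CPM over 4, at most 1 animal in the other direction), the 2 members of each list with the smallest p and a fixed set; some of these are not reported here. Genes called by DESeq2 were added after their values were seen. Alternatives were another scaling, tool, filter, minimum of cells, division, ADCYAP1 minimum, day, covariates, cells left out and each animal left out.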

Additional observations from a re-analysis of the deposited data

Results flagged for a closer look

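For 11 of the named genes and columns (10.6%) a single animal stood apart from the other animals in the difference between the sides, by Dixon's ratio at its 95% level, where chance gives about 1 in 20. Animal 2 was the one apart in 7 of the 11. Differences in log2 CPM were as follows. GNB5 differed by 2.34 in animal 2 and 0.13 to 0.92 in the other animals. PEX5L stood at -2.19 in animal 2 and -0.55 to 0.70 in the other animals. For FOSL1, without a count on the upper side of animal 2, the difference was -5.69 in animal 2 and -1.71 to 0.65 in the other animals. CALM2 gave -1.88 in animal 2 and -0.56 to -0.01 in the other animals. PLAU, without a count on the upper side of that animal, gave -7.17 in animal 2 and -3.40 to -0.58 in the other animals. LCOR was at -0.063 in animal 5 and -1.46 to -0.99 in the other animals. KCNJ11 reached 4.37 in animal 3 and -0.28 to 0.97 in the other animals. SCN7A showed -1.15 in animal 4 and -0.28 to 0.26 in the other animals. In recorded units 3 columns had such an animal. Action potential duration (APD) differed by -1.21 in animal 2 and -0.352 to 0.291 in the other animals. The column AHP_new differed by -54.6 in animal 2 and -5.02 to 17.4 in the other animals. The column AHP_Tau differed by 988 in animal 5 and -28 to 14.7 in the other animals. Of the 7 neurons above the median in animal 5, 1 had an AHP_Tau of 6908 and the other neurons 11.7 to 47.1, so the difference rests on that neuron.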

How the results depend on the processing

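edgeR called 0 genes under each alternative except cells at 1 day, where it called 1 (MMP1). DESeq2 called 30, and 13 without the TRPM8 neurons, of which 7 were shared, although the runs adjusted over different sets of genes. Without the animal block edgeR called 0 genes, with 627 at an unadjusted p under 0.05, and the unpaired exact permutation test called 81 columns, or 6 outside the pulse series. Outside the pulse series 4 columns passed with 1 cell per animal and side, and 3 with the division at or above the median. Leaving out each animal in turn left 0 genes and 0 columns called. For the columns, adjusted with the pulse series included, the small number of animals fixed that outcome in advance. Capacitance, diameter, TRPA1 and MMP1 kept their direction throughout, and TAC1 turned only with capacitance as a covariate; the cause was not tested. With an ADCYAP1 minimum of 100 CPM the sign turned for Min_AHP -0.285. With an ADCYAP1 minimum of 500 CPM the sign turned for ANO3 0.14. With DESeq2 without the TRPM8 neurons the sign turned for SCN8A -0.078. With 1 cell per animal and side the sign turned for Min_AHP -0.527. With sums of at least 1 cell the sign turned for FGF11 -0.37, CACNB4 -0.15, ATP1B1 -0.051, FOS -0.38, SDHA -0.0080, ADCYAP1 0.018, SCN11A 0.0023, SCN2A -0.32 and TRPV1 -0.35. With 3 cells per animal and side the sign turned for Min_AHP -0.359. With sums of at least 3 cells the sign turned for OSMR 0.22. With a division at or above against below the median the sign turned for PEX5L 0.10, ATP1B1 -0.11, HRH1 0.27, SDHA -0.016, TMC3 0.42, Min_AHP -0.489 and AHP_new 0.731. With cells at 1 day the sign turned for CACNA1B 0.32, FOS -0.16, SCN7A 0.013, ADCYAP1 0.017, SCN8A -1.17 and AHP_Tau -6.84. With only the highest and lowest tertiles of the 100 Hz value the sign turned for PEX5L 0.22, ATP1B2 -0.010, FOSL1 0.21, OSMR 0.13, SCN11A 0.51, APD 0.0989, Min_AHP -0.11 and AHP_new 8.57. With limma on animal means the sign turned for PEX5L 0.32, ATP1B2 -0.065, CD68 -0.58, SCN8A -0.022, SCN2A -0.24 and TRPV1 -0.36. With mean capacitance as a covariate the sign turned for LSAMP -0.22, CNTN4 -0.19, GNB5 -0.055, NRP1 0.26, DTX3L 0.29, RARRES1 0.50, TAC1 0.98, CLIC4 0.87, FGF12 -0.39, PEX5L 1.85, ATP1B2 -0.58, GFRA1 1.36, SLC17A8 -3.35, FOS -0.37, FOSL1 1.89, COX5B 0.36, SDHA -0.16, CALM2 1.09, ERBB3 0.38, SCN7A 0.55, PECAM1 0.42, COL1A2 -0.051, NUPR1 0.27, ADCYAP1 0.31, SCN9A 1.11, SCN11A 1.42, SCN2A -1.91 and ANO3 4.48. With mean log2 total count as a covariate the sign turned for CACNA1B 0.35, ANO6 0.029, HRH1 0.066, FOS -0.0035, ADCYAP1 0.082, SCN8A -0.16 and TMC3 0.011. With the median cell of an animal the sign turned for Min_AHP -1.19 and AHP_new 3.13. With no animal block the sign turned for OSMR 0.31 and TMC3 0.28. With the TRPM8 neurons left out the sign turned for SCN8A -0.055. Over the 7 fits that each leave out an animal, the sign turned for PEX5L (-0.30 to 0.16), OSMR (-0.55 to 0.22), SCN11A (-0.26 to 0.20), SCN8A (-0.15 to 0.33), SCN2A (-0.30 to 0.48), TMC3 (-0.69 to 0.023), TRPV1 (-0.25 to 0.31), Min_AHP (-0.626 to 0.572), AHP_new (-8.45 to 3.55) and AHP_Tau (-3.17 to 166.1). The small number of animals and the sparse counts of single cells limit all of these.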
